A study of Mus musculus with 6 samples.

Results

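Fatty acid oxidation was followed in mouse liver through 33 genes, taken by their annotated symbol: the enzymes that carry fatty acids into mitochondria and peroxisomes and degrade them there, and well-known target genes of the nuclear receptor PPARα. All 33 genes were measured, with 1 array row each, among 19505 named genes. The livers came from 3 HMGB2-KO and 3 WT male mice on the C57BL/6 background at 8 weeks of age, and each was hybridised to 1 Clariom S mouse array. No treatment, surgery, feeding state or hour of collection is named in the labels, nor whether the deletion was in the whole animal or in hepatocytes only. The titles number the livers 1 to 3 within each genotype, and the sample descriptions add animal numbers, which are 39, 41 and 32 for HMGB2-KO livers 1 to 3 and 38, 40 and 31 for WT livers 1 to 3. Livers numbered 3 thus came from animals 31 and 32 and livers numbered 1 and 2 from animals 38 to 41. What the numbers stand for is not given in the labels.

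Hepatocytes burn fatty acids mainly in mitochondria, where each turn of beta-oxidation removes an acetyl unit from the acyl chain. Entry is controlled at the carnitine shuttle, very long and branched chains start in peroxisomes, and cytochromes of the Cyp4a family oxidise the far (omega) end of the chain. PPARα senses fatty acids, is most active in the fasted liver, and raises the transcription of most of these genes. Several of them, and the gene of PPARα itself, are also known to follow the daily rhythm of the liver clock and of feeding. HMGB2, the protein removed in the knockout, is an abundant DNA-bending chromatin protein, and the study set out to find genes whose expression goes with it.

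All values below are log2 values relative to a row baseline that is not described in the sources used here, taken after the median of each array had been set to 0. A value of 1 higher is a doubling, values can be compared between livers for 1 gene, and they give no order of level between genes. On the scale as deposited the median of all genes was -0.12 for HMGB2-KO against WT and -0.09 for the comparison of liver numbers given further on, and every difference was lower by about as much, so that small positive differences and medians lay below 0 there. Hmgb2 stood at -0.66, -0.33 and -0.43 in HMGB2-KO livers 1 to 3, against 0.47, 0.37 and 0.42 in WT livers 1 to 3. All 3 HMGB2-KO livers lay below all 3 WT livers. The log2 difference was -0.89 (SE 0.13), which did not pass limma's test after adjustment over all genes (adjusted p = 0.645), and which part of the gene was deleted is not given in the labels. WT liver 2 stood apart on the array level: its median over all rows before centring was 0.26, against -0.05 to 0.01 in the other 5 livers, and 132 of its rows lay more than 2 log2 below every other array, against 4 to 33 rows elsewhere. The hepatocyte markers measured (9 of 12, such as Alb and Ttr) had a median of -0.24 in WT liver 2 after centring and 0.01 before it, against -0.00 to 0.04 after centring in the other livers. Because the values hold no absolute level, the labelled tissue could not be checked by how strongly its markers were expressed.

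Livers of the 2 genotypes were compared first, as the series' design states. No member of the pathway was called different between HMGB2-KO and WT livers, and neither was any of the 19505 genes (0% called at an adjusted p under 0.05 in limma's test). The smallest adjusted p was 0.350 over all genes and 0.994 over the members. At an unadjusted p under 0.05 there were 717 genes (3.68%), of which 1 was a member, the omega-hydroxylase gene Cyp4a12a. A fit without moderation of the variances also called 0 genes, with 837 at an unadjusted p under 0.05. The main fit held no term for liver number, so differences between the liver numbers enter its standard errors. With a term for animals 31 and 32, 0 genes were called, with 817 genes and 2 members at an unadjusted p under 0.05. With 3 arrays per genotype the number of arrays limits the precision, and p-values measure the spread between these livers. The 3 HMGB2-KO values lay above all 3 WT values in 2 members, Cyp4a12a and the enoyl-CoA isomerase gene Eci1, where 4.32% of all genes did so. They lay below all WT values in 0 members, against 5.35% of all genes.

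The members' log2 differences between HMGB2-KO and WT ran from -0.78 for Cyp4a14 to 1.5 for Pex11a, with a median of 0.10 beside -0.00 for all genes. The difference was above 0 in 26 of 33 members (78.8%), beside 49.5% of all genes. Most of that lean lay between the livers numbered 2. There HMGB2-KO liver 2 minus WT liver 2 had a median of 0.40 over the members, with 28 of 33 above 0, beside a median of 0.01 over all genes. The livers numbered 1 gave a median of 0.02 (18 of 33 above 0) and the livers numbered 3 a median of 0.01 (17 of 33 above 0). After centring, HMGB2-KO liver 2 held the highest value of 21 members and WT liver 2 the lowest of 13. Centring lowered every value of WT liver 2 by 0.26, so the count for that liver depends on this step. Neither count was made with the values as deposited or over all genes. Leaving out HMGB2-KO liver 2 brought the median genotype difference to 0.01 (18 of 33 above 0), and leaving out WT liver 2 brought it to 0.06 (22 of 33). Liver numbers were then uneven between the genotypes, so differences between numbers enter these medians. Centring also bears on the lean: with the values as deposited, the members' median was -0.02 while that of all genes was -0.12, and 16 members lay above 0. Between the livers numbered 2 the median of the members was then 0.09, beside -0.30 for all genes. The part of the array difference of WT liver 2 in this lean was not tested further.

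**Figure D1:**
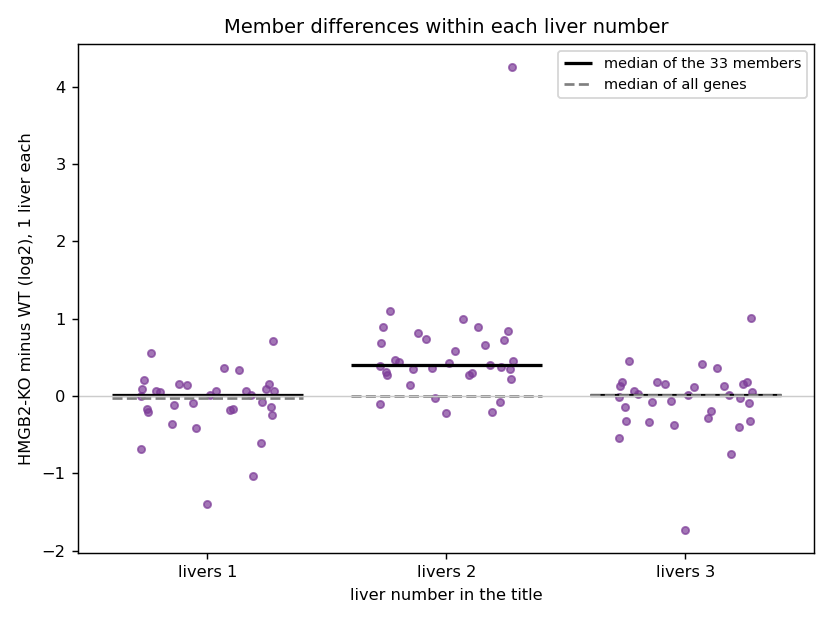
Each point is 1 of the 33 members, and the y axis gives the log2 difference of the HMGB2-KO liver minus the WT liver of the same number in the title (x axis), with 1 liver on each side. Black lines mark the members' medians of 0.02, 0.40 and 0.01 for livers 1, 2 and 3 and dashed lines the medians of all genes, and the points for livers 2 lie mostly above 0.

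A second comparison set the livers numbered 3 against the livers numbered 1 and 2, with genotype as a term. Here 24 of 33 members lay lower, to very different extents. Angptl4, the secreted inhibitor of lipoprotein lipase, fell by 3.02 on the log2 scale in the livers numbered 3, an 8.11-fold lower signal, and Cpt1a, Cyp4a10, Cyp4a14, Cyp4a31, Eci2 and Vnn1 also lay lower there without passing the adjusted test. Pdk4, an inhibitor of glucose oxidation, lay on the opposite side. The core enzymes of the mitochondrial spiral differed less, from -0.40 for Acadl to 0.08 for Hadh. All 5 genes of the acyl-CoA and ETF dehydrogenases were lower (median -0.19).

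Of all genes, 8 were called in this comparison in limma's test, 5 lower (0.0256%) and 3 higher (0.0154%) in the livers numbered 3. Angptl4 was the only member among the 5, and 0 of the 3 were members. With a 1.5-fold difference and an unadjusted p under 0.05, 8 members were lower, where 1.88% of all genes were, and 1 member, Pdk4, was higher, where 1.15% of all genes were. The livers numbered 3 lay below all 4 others in 14 members (42.4%), beside 9.32% of all genes, and above all 4 others in 1 member, beside 10.4%. The difference was below 0 in 24 members (72.7%), beside 50% of all genes. The members' median was -0.23, beside -0.00 for all genes, and the range ran from -3.03 to 0.73.

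The same direction in both genotypes was counted next. HMGB2-KO liver 3 minus the mean of HMGB2-KO livers 1 and 2 was below 0 in 30 of 33 members and above 0 in 3, where 52.3% of all genes were above 0. The median was -0.35, beside 0.01 for all genes. WT liver 3 minus the mean of WT livers 1 and 2 was below 0 in 21 of 33 and above 0 in 12, where 49.2% of all genes were above 0. The median was -0.24, beside -0.01 for all genes. Each of these differences rests on 1 liver numbered 3. Both differences were below 0 in 21 members and both above 0 in 3, beside 28.1% and 29.6% of all genes. A test of whether the genotype difference itself differed between livers 3 and livers 1 and 2 called 0 genes (smallest adjusted p = 0.215, 618 genes at an unadjusted p under 0.05), and 1 was the smallest adjusted p among the members. That test had 1 liver numbered 3 per genotype, so its errors come from livers 1 and 2 alone. It cannot tell such a difference from spread among the livers numbered 3. These are whole livers, so fewer cells of a type and less RNA per cell cannot be told apart. Animal number, liver number and anything else that animals 31 and 32 shared cannot be told apart either.

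**Figure D2:**
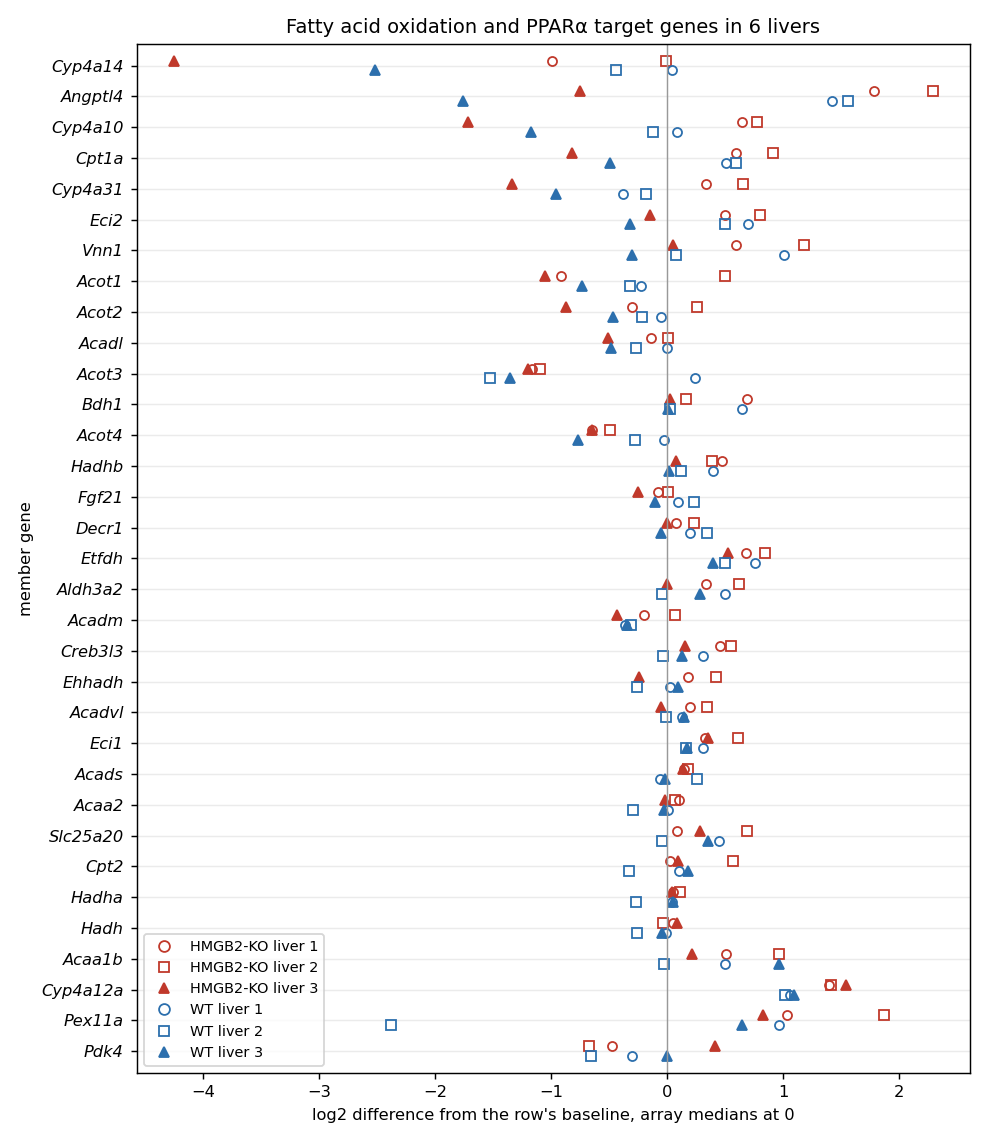
Values of each member (y axis, ordered by the difference between the livers numbered 3 and the others) in the 6 livers, as log2 difference from the row's baseline with array medians at 0 (x axis). Filled triangles are the livers numbered 3 and open symbols the livers numbered 1 and 2, with HMGB2-KO in red and WT in blue. The filled triangles lie left of the open symbols for 14 members, from Cyp4a14 at the top to the smaller differences of Decr1 and Fgf21, and right of them for Pdk4 at the bottom.

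The carnitine shuttle was led by Cpt1a, whose product on the outer mitochondrial membrane joins long-chain acyl groups to carnitine and sets the rate of their entry. Cpt1a stood at -0.82 in HMGB2-KO liver 3 and -0.50 in WT liver 3, against 0.60 and 0.91 in HMGB2-KO livers 1 and 2 and 0.51 and 0.59 in WT livers 1 and 2. The livers numbered 3 were the lowest in both genotypes and the other 4 lay close together. The log2 difference was -1.31 (SE 0.17, adjusted p = 0.0890), a 2.48-fold lower signal, and it was -1.57 within HMGB2-KO and -1.05 within WT. The difference of HMGB2-KO from WT was 0.03 (SE 0.47), with a 95% interval of -1.07 to 1.13. That SE includes the distance of the livers numbered 3 from the others. Cpt2, which returns the acyl group to coenzyme A inside the mitochondrion, and Slc25a20, the carrier that exchanges acylcarnitine for carnitine across the inner membrane, did not share this pattern. Their differences were 0.05 and 0.02 for the livers numbered 3 and 0.24 and 0.10 for HMGB2-KO against WT, and their values over the livers ran from -0.32 to 0.69.

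Promoter sequence was available for some members only. Windows of 250 bases before to 50 bases after the start, from RefSeq on GRCm38.p6, were held for 25 of the 33 genes, 28 windows in all. The windows of Cpt1a, Eci2 and Pdk4 are shown because these genes had the clearest differences between the livers numbered 3 and the others among the members with a window, 2 of them lower and 1 higher. Capitals mark the nuclear receptor half-site AGGTCA, here as its reverse complement TGACCT, and lower case throughout means that none of the 4 motifs searched was found.
Cpt1a, chr19:3323051-3323350, plus strand: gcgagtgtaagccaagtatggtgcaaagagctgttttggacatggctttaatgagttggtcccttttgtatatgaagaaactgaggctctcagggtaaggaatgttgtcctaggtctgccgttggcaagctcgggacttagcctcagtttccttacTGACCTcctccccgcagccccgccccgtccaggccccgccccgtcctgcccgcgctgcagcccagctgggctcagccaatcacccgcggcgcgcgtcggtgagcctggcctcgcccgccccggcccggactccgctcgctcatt
Eci2, chr13:34994095-34994394, minus strand: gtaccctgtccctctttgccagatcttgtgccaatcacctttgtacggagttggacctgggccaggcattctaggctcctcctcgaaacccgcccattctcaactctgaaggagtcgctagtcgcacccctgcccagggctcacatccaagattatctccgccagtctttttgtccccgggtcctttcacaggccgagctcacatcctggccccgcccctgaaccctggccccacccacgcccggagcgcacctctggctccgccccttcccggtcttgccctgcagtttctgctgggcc
Pdk4, chr6:5496229-5496528, minus strand: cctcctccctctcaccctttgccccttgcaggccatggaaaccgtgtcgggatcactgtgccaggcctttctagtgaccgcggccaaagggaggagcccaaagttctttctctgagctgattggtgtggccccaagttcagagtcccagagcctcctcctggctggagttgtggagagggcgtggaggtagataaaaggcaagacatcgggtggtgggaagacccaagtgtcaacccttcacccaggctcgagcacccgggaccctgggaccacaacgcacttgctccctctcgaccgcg

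The half-site AGGTCA was searched on both strands of each window and was present in 7 windows of 6 member genes (Acadm, Acadvl, Acot3, Acot4, Cpt1a and Creb3l3), beside 16.3% of the 32851 windows of all genes. In Cpt1a it began 94 bases before the start. The PPAR response element, written as 2 copies of AGGNCA in the same orientation with 1 base between them, was in 0 of the 28 windows and in 0.381% of all windows. The half-site can lie inside such an element. The E-box CACGTG, bound by the clock proteins CLOCK and BMAL1, was in the windows of Acot4, Aldh3a2 and Fgf21, beside 7.15% of all windows, and the D-box TTANGTAA, bound by DBP and its relatives, was in 0 of the 28, beside 2.32%. These are letter matches in short windows, and elements farther from the start were not searched.

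The acyl-CoA dehydrogenases take the first step of each turn, and each prefers a range of chain lengths: very long for Acadvl, long for Acadl, medium for Acadm and short for Acads. Etfdh passes their electrons on to the respiratory chain. Acadl stood at -0.51 in HMGB2-KO liver 3 and -0.49 in WT liver 3, against -0.14 and 0.01 in HMGB2-KO livers 1 and 2 and 0.00 and -0.27 in WT livers 1 and 2. Both livers numbered 3 were lowest, by a small margin over WT liver 2. The difference was -0.40 (SE 0.14, unadjusted p = 0.0264, adjusted p = 0.511). In the other 4 genes the livers numbered 3 overlapped the rest, with differences from -0.23 for Etfdh to -0.07 for Acads. All 5 genes lay between 0.04 and 0.15 higher in HMGB2-KO than in WT on average, within standard errors of 0.13 to 0.19, and with the values as deposited only 2 of the 5 were above 0.

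Genes of the later steps did not pass in either comparison. Hadha and Hadhb encode the α and β subunits of the mitochondrial trifunctional protein, Hadh the dehydrogenase for shorter chains, and Acaa2 the thiolase that cuts off acetyl-CoA. Differences of HMGB2-KO from WT were 0.12, 0.13, 0.14 and 0.15 in that order, with 95% intervals that together spanned -0.24 to 0.51. After centring, which lowered WT liver 2 by 0.26, that liver was the lowest of the 6 for Hadha, Hadh and Acaa2. On the scale as deposited it was not the lowest for Hadh and Acaa2. For the livers numbered 3 the differences were 0.06, -0.30, 0.08 and 0.00, and only the values of Hadhb did not overlap the other livers (0.08 in HMGB2-KO liver 3 and 0.01 in WT liver 3, against 0.47 and 0.39 in HMGB2-KO livers 1 and 2 and 0.40 and 0.12 in WT livers 1 and 2). That difference did not pass (SE 0.14, adjusted p = 0.632). Hadha and Hadhb are transcribed away from each other from starts 273 bases apart, so that their promoter windows share 228 bases.

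Unsaturated fatty acids need auxiliary enzymes that move or remove double bonds before the spiral can go on. Eci2, an enoyl-CoA isomerase found in mitochondria and peroxisomes, stood at -0.15 in HMGB2-KO liver 3 and -0.32 in WT liver 3, against 0.50 and 0.80 in HMGB2-KO livers 1 and 2 and 0.70 and 0.50 in WT livers 1 and 2. In both genotypes liver 3 was well below the others. The log2 difference was -0.86 (SE 0.15, adjusted p = 0.153), and it was -0.79 within HMGB2-KO and -0.92 within WT. Its window above holds none of the motifs searched. Eci1, the mitochondrial isomerase, and Decr1, the dienoyl-CoA reductase, differed by -0.09 and -0.24. In Eci1 the genotypes did not overlap, at 0.33, 0.61 and 0.36 in HMGB2-KO livers 1 to 3 and 0.31, 0.16 and 0.17 in WT livers 1 to 3, but the lowest HMGB2-KO value and the highest WT value nearly met, and the difference of 0.22 (SE 0.13) had an adjusted p of 0.994.

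Peroxisomal members showed no shared pattern. Ehhadh, the bifunctional enzyme, and Acaa1b, a thiolase, had differences of 0.17 and 0.09 for HMGB2-KO against WT and of -0.17 and 0.10 for the livers numbered 3. In Acaa1b the number difference was -0.52 within HMGB2-KO and 0.73 within WT. Pex11a, which takes part in the division of peroxisomes, stood at 1.03, 1.87 and 0.83 in HMGB2-KO livers 1 to 3, against 0.96, -2.38 and 0.64 in WT livers 1 to 3. A single liver, WT 2, lay far below the rest, and the other 2 WT livers were close to HMGB2-KO livers 1 and 3. The genotype difference of 1.5 (SE 0.81, adjusted p = 0.994) was 0.44 without WT liver 2.

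The Cyp4a genes encode omega-hydroxylases, and Cyp4a10 and Cyp4a14 are classical PPARα targets in mouse liver. Of the 4 measured as members, 3 were low in the livers numbered 3. Cyp4a14 stood at -4.25 in HMGB2-KO liver 3 and -2.52 in WT liver 3, against -0.996 and -0.01 in HMGB2-KO livers 1 and 2 and 0.04 and -0.44 in WT livers 1 and 2. The 2 lowest values by a wide margin were those of the livers numbered 3, and the lower of them was the HMGB2-KO liver. The log2 difference was -3.03 (SE 0.40, adjusted p = 0.0866), an 8.18-fold lower signal. Cyp4a10 stood at -1.72 in HMGB2-KO liver 3 and -1.18 in WT liver 3, against 0.64 and 0.77 in HMGB2-KO livers 1 and 2 and 0.09 and -0.12 in WT livers 1 and 2. Its difference was -1.79 (SE 0.28, adjusted p = 0.125). Again both livers numbered 3 were lowest, and the 2 genotypes were ordered differently within and outside them.

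Cyp4a31 stood at -1.34 in HMGB2-KO liver 3 and -0.96 in WT liver 3, against 0.34 and 0.66 in HMGB2-KO livers 1 and 2 and -0.38 and -0.19 in WT livers 1 and 2, a difference of -1.26 (SE 0.27, adjusted p = 0.257). Among livers 1 and 2 both HMGB2-KO values were above both WT values for Cyp4a10 and Cyp4a31, and among the livers numbered 3 HMGB2-KO was below WT. The difference for the livers numbered 3 was -2.43 within HMGB2-KO and -1.16 within WT for Cyp4a10, -1.83 and -0.68 for Cyp4a31, and -3.75 and -2.32 for Cyp4a14. The HMGB2-KO minus the WT difference was -1.27 for Cyp4a10, -1.15 for Cyp4a31 and -1.43 for Cyp4a14, and none passed adjustment. Each rests on 1 liver numbered 3 per genotype, so spread among the livers numbered 3 was not measured. Cyp4a10, Cyp4a31 and the non-member Cyp4a32 are close copies of each other, and probes may read more than 1 of them, so their separate values are uncertain.

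Cyp4a12a, the omega-hydroxylase gene known for its higher expression in male mice, behaved otherwise. Its values were 1.39, 1.41 and 1.55 in HMGB2-KO livers 1 to 3, against 1.06, 1.01 and 1.10 in WT livers 1 to 3. All 3 HMGB2-KO livers lay above all 3 WT livers, with little spread inside either genotype. The log2 difference was 0.39 (SE 0.12, 95% interval 0.13 to 0.66, unadjusted p = 0.00985), a 1.31-fold higher signal, and it did not pass adjustment over all genes (adjusted p = 0.994). It was between 0.35 and 0.42 with any 1 liver left out, but 0.28 with the values as deposited (unadjusted p = 0.0802) and 0.44 with quantile normalization (unadjusted p = 0.0668), so that under either scaling 0 members had an unadjusted p under 0.05. The livers numbered 3 differed from the others by 0.10 (SE 0.12). The non-member Cyp4a12b did not share the separation by genotype. It stood at 0.79, 1.25 and 1.24 in HMGB2-KO livers 1 to 3, against 0.89, 0.81 and 1.15 in WT livers 1 to 3, a difference of 0.14 (SE 0.17). Whether the probes tell Cyp4a12a and Cyp4a12b apart was not tested. Aldh3a2, which oxidises the fatty aldehydes formed downstream, differed by 0.07 between genotypes and by -0.21 for the livers numbered 3, with overlap in both.

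Acyl-CoA thioesterases release free fatty acids from coenzyme A, in the cytosol for Acot1, in mitochondria for Acot2 and in peroxisomes for Acot3 and Acot4. All 4 had a negative difference in both comparisons, from -0.27 to -0.06 for HMGB2-KO against WT and from -0.65 to -0.35 for the livers numbered 3, and 0 passed. Acot2 stood at -0.87 in HMGB2-KO liver 3 and -0.47 in WT liver 3, against -0.31 and 0.25 in HMGB2-KO livers 1 and 2 and -0.06 and -0.21 in WT livers 1 and 2. The livers numbered 3 were lowest, at a distance similar to the spread of the other 4 (difference -0.59, SE 0.21, adjusted p = 0.507). Acot3 stood at -1.16, -1.09 and -1.20 in HMGB2-KO livers 1 to 3, against 0.24, -1.53 and -1.35 in WT livers 1 to 3. WT liver 1 alone was high, and the genotype difference of -0.27 (SE 0.42) was 0.29 without it. Acot1 and Acot2 are near copies, and their separate values are uncertain.

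Among the regulators and secreted products, Angptl4 gave the clearest result. Its product blocks lipoprotein lipase and so limits the uptake of circulating triglyceride by other tissues, and the gene is induced by fasting and by PPARα. Angptl4 stood at -0.75 in HMGB2-KO liver 3 and -1.76 in WT liver 3, against 1.78 and 2.29 in HMGB2-KO livers 1 and 2 and 1.42 and 1.56 in WT livers 1 and 2. The livers numbered 3 were far below the other 4 in both genotypes, and HMGB2-KO was above WT at each number. The log2 difference for the livers numbered 3 was -3.02 (SE 0.19, 95% interval -3.48 to -2.56, adjusted p = 0.00775 in limma's test). It was -2.79 within HMGB2-KO and -3.25 within WT. The call was lost without HMGB2-KO liver 3 or without WT liver 3, which leaves 1 liver numbered 3 (adjusted p = 0.110 each), and in a fit without moderation of the variances (adjusted p = 0.449). For HMGB2-KO against WT the difference was 0.70 (SE 1.05, adjusted p = 0.996), and it was 0.36, 0.72 and 1.01 at livers 1 to 3. The genotype fit held no term for liver number, so this SE includes the distance of the livers numbered 3 from the others.

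Pdk4, a kinase that inactivates pyruvate dehydrogenase and thereby spares glucose while fat is burned, ran against most members in the livers numbered 3. It stood at 0.42 in HMGB2-KO liver 3 and -0.00 in WT liver 3, against -0.48 and -0.68 in HMGB2-KO livers 1 and 2 and -0.31 and -0.65 in WT livers 1 and 2. In both genotypes the highest liver was number 3. The difference was 0.73 (SE 0.18, adjusted p = 0.347), with 0.99 within HMGB2-KO and 0.48 within WT. Vnn1, the pantetheinase vanin 1 on the cell surface, stood at 0.05 in HMGB2-KO liver 3 and -0.31 in WT liver 3, against 0.59 and 1.18 in HMGB2-KO livers 1 and 2 and 1.01 and 0.08 in WT livers 1 and 2. The margin between HMGB2-KO liver 3 and WT liver 2 was small, and the difference of -0.84 (SE 0.28) had an adjusted p of 0.495.

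Fgf21, a hormone of the fasted liver, differed little in either comparison, by -0.18 (SE 0.14) for HMGB2-KO against WT and by -0.24 (SE 0.13) for the livers numbered 3. It was lower in HMGB2-KO at each of the 3 numbers, and neither difference passed. Creb3l3, a membrane-bound transcription factor that works with PPARα on Fgf21, differed by 0.25 (SE 0.16) and -0.18 (SE 0.16). Bdh1, which interconverts the 2 main ketone bodies, differed by 0.07 and -0.37, and its highest values were those of the livers numbered 1, at 0.69 in HMGB2-KO and 0.64 in WT.

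**Figure D3:**
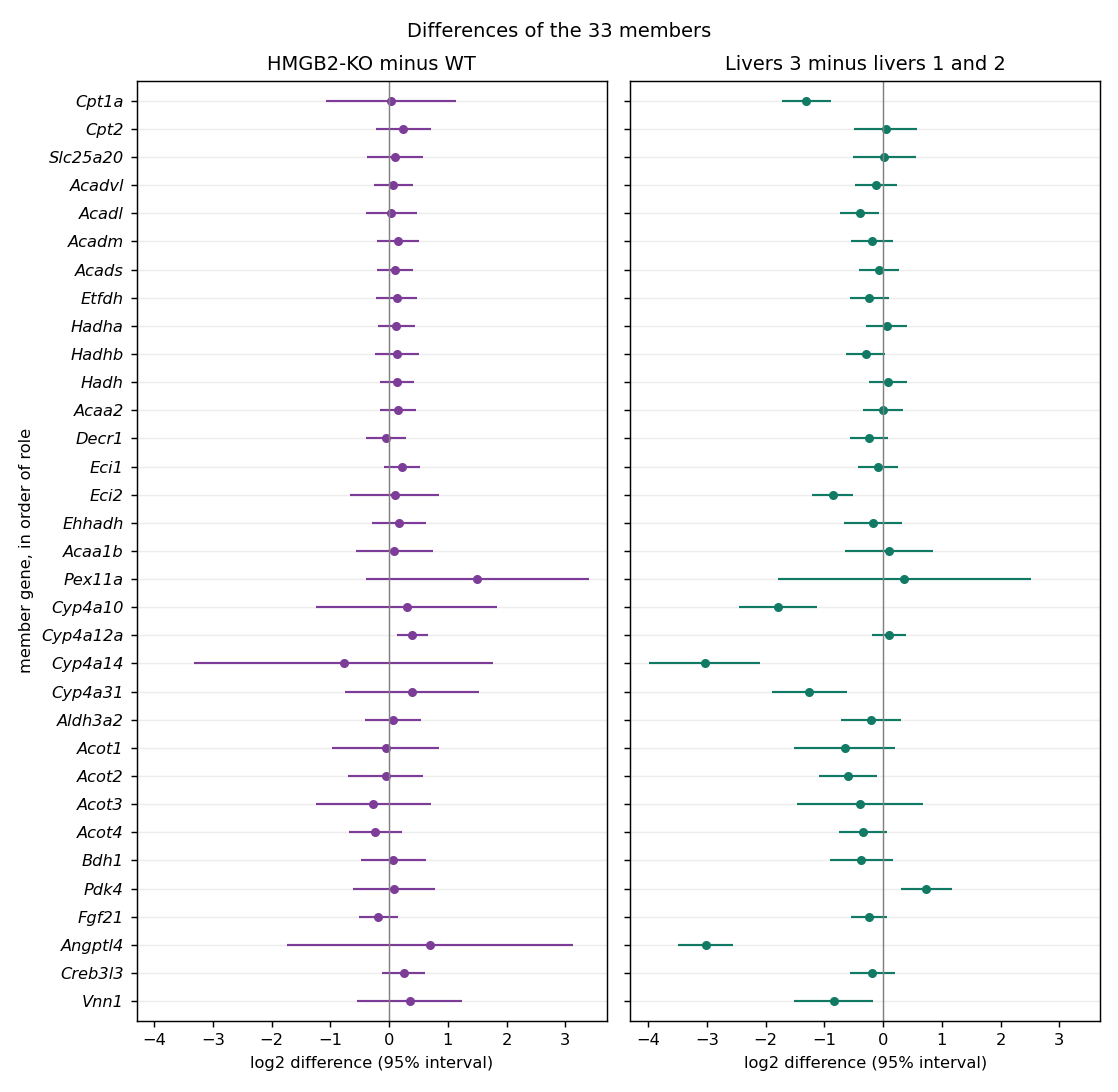
Log2 differences of the 33 members with 95% intervals (x axes), for HMGB2-KO minus WT at left and for the livers numbered 3 minus livers 1 and 2 at right, in order of role (y axis). At left the interval of Cyp4a12a, from 0.13 to 0.66, leaves out 0, and at right the largest differences are those of Cyp4a14, Angptl4, Cyp4a10, Cpt1a and Cyp4a31, with Pdk4 on the other side of 0.

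Spread over the livers differed between members. The range over the 6 livers was at least 1 log2 in 12 members and under 0.5 in 11, from 0.32 for Acads to 4.29 for Cyp4a14, with a median of 0.69 beside 0.52 for all genes.

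The receptor and its regulators were then read from lists that leave the members out. Some genes stand in more than 1 of the lists below, such as Fabp1, Slc27a1, Acot8 and Lpin1, so the counts of these lists are not independent. In the list of PPARα, its partners and regulators, 19 of 23 genes were measured and 0 passed in either comparison. Ppara itself stood at 0.19 in HMGB2-KO liver 3 and 0.48 in WT liver 3, against 1.45 and 1.56 in HMGB2-KO livers 1 and 2 and 1.32 and 1.51 in WT livers 1 and 2. Like Cpt1a, it was lowest in both livers numbered 3, and the difference was -1.13 (SE 0.15, adjusted p = 0.0890). Lpin1, which acts as a coactivator of PPARα besides its enzymatic role in triglyceride synthesis, stood at 1.33 in HMGB2-KO liver 3 and -0.68 in WT liver 3, against 4.16 and 5.39 in HMGB2-KO livers 1 and 2 and 3.74 and 5.16 in WT livers 1 and 2. Its difference was -4.29 (SE 0.56, adjusted p = 0.0866), and that of its relative Lpin2 was -2.71 (SE 0.30, adjusted p = 0.0739). Over the list 13 genes were lower and 6 higher in the livers numbered 3, with a median of -0.14, and 13 were higher and 6 lower in HMGB2-KO than in WT, with a median of 0.16. With the values as deposited 11 were higher and 8 lower in HMGB2-KO (median 0.04). The smallest unadjusted p for HMGB2-KO against WT were those of the coactivators Ncoa2 (0.34, SE 0.13), Ncoa1 (0.32, SE 0.13) and Crebbp (0.26, SE 0.13), each with an adjusted p of 0.994.

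Other genes of fat breakdown lay closer to 0, and 0 passed in either comparison. Of 16 further mitochondrial genes, 10 were lower and 6 higher in the livers numbered 3 (median -0.07), led by Acad12 (-0.42), Crat (0.53) and Acad11 (-0.24), and 12 were higher and 4 lower in HMGB2-KO (median 0.10), led by Acat1, Slc22a5 and Acad8. Of 18 further peroxisomal genes, 11 were higher and 7 lower in the livers numbered 3 (median 0.07), led by Slc25a17 (0.54), Pecr (0.32) and Abcd2 (-0.90), and 10 were higher and 8 lower in HMGB2-KO (median 0.02), led by Pex11g, Hacl1 and Acox2. With the values as deposited the peroxisomal median in the livers numbered 3 was -0.02. On that scale only 5 of the mitochondrial and 6 of the peroxisomal genes were higher in HMGB2-KO (medians -0.02 and -0.10). Genes of fatty acid uptake, binding and activation split evenly in the livers numbered 3, 8 against 8 (median -0.01), led by Acsm3 (-0.41), Slc27a2 (-0.37) and Acsm5 (-0.25). In HMGB2-KO 11 of these 16 were higher (median 0.06), led by Cd36, Fabp4 and Acsm3, or 6 of 16 with the values as deposited (median -0.06). Of the 5 ketogenesis and ketone transport genes measured, 4 were higher in the livers numbered 3 (median 0.02) and 2 were higher in HMGB2-KO (median -0.09), led in both by the transporters Slc16a1, Slc16a6 and Slc16a7.

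Among 21 other PPARα targets of liver, 16 were lower and 5 higher in the livers numbered 3 (median -0.17), led by Txnip, an inhibitor of thioredoxin, at -2.34 (SE 0.30, adjusted p = 0.0844), by the triglyceride lipase gene Pnpla2 at -0.97 (adjusted p = 0.291), and by Ucp3 at 0.30. In HMGB2-KO 16 were higher and 5 lower (median 0.17), led by the lipid droplet genes Plin2 and Plin5 and by Gpd1. With the values as deposited 13 were higher and 8 lower (median 0.05). The other 9 thioesterase genes were balanced, with 5 higher and 4 lower (median 0.00) in the livers numbered 3, where Acot12 was at -0.89 (adjusted p = 0.161), Acot5 at -0.31 and Acot13 at 0.15. In HMGB2-KO 4 were higher and 5 lower (median -0.01), led by Acot9, Acot13 and Them4. Of 11 other Cyp4 genes, 6 were higher and 5 lower in both comparisons (medians 0.06 in the livers numbered 3 and 0.01 in HMGB2-KO). Cyp4a32, the close copy of Cyp4a10, was at -1.89 in the livers numbered 3 (SE 0.32, adjusted p = 0.145), followed by Cyp4f13 and Cyp4f15, and the smallest p for HMGB2-KO were those of Cyp4f17, Cyp4b1 and Cyp4f13.

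Genes of the circadian clock and of the fasted and fed states were read in the same way. In the circadian list 3 of 19 genes passed in the livers numbered 3. The repressor genes Nr1d1 and Nr1d2 fell by 4.56 (SE 0.14, adjusted p = 0.000271) and 2.41 (SE 0.22, adjusted p = 0.0384), and the activator gene Npas2 rose by 1.82 (SE 0.13, adjusted p = 0.0109). Nr1d1 stood at -1.52 in HMGB2-KO liver 3 and -1.57 in WT liver 3, against 2.88 and 2.91 in HMGB2-KO livers 1 and 2 and 3.27 and 3.03 in WT livers 1 and 2, so the 2 sets of livers stood far apart with almost no spread inside either. None of the 19 passed for HMGB2-KO against WT, where Tef, Per2 and Hlf had the smallest p. Of 11 genes of the fasted state, 9 were lower and 2 higher in the livers numbered 3 (median -1.40), and 0 passed. The smallest p were those of the cell cycle inhibitor gene Cdkn1a (2.48), Lpin1 and the metallothionein gene Mt1 (-4.15). For HMGB2-KO against WT 10 of these 11 were higher (median 0.46), led by Irs2, G6pc and Pck1, each with an adjusted p of 0.994. Of 13 genes of the fed state, 7 were higher and 6 lower in the livers numbered 3 (median 0.06), led by Elovl6 (-0.99), Insig2 (0.73) and Fasn (1.21), and 10 were higher in HMGB2-KO (median 0.06), led by Pnpla3, Acaca and Mlxipl. With the values as deposited 6 of these 13 and 10 of the 11 fasted-state genes were higher in HMGB2-KO (medians -0.06 and 0.34). The part of the clock and of feeding in the members' differences was not tested, since the labels give neither hour nor food.

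**Figure D4:**
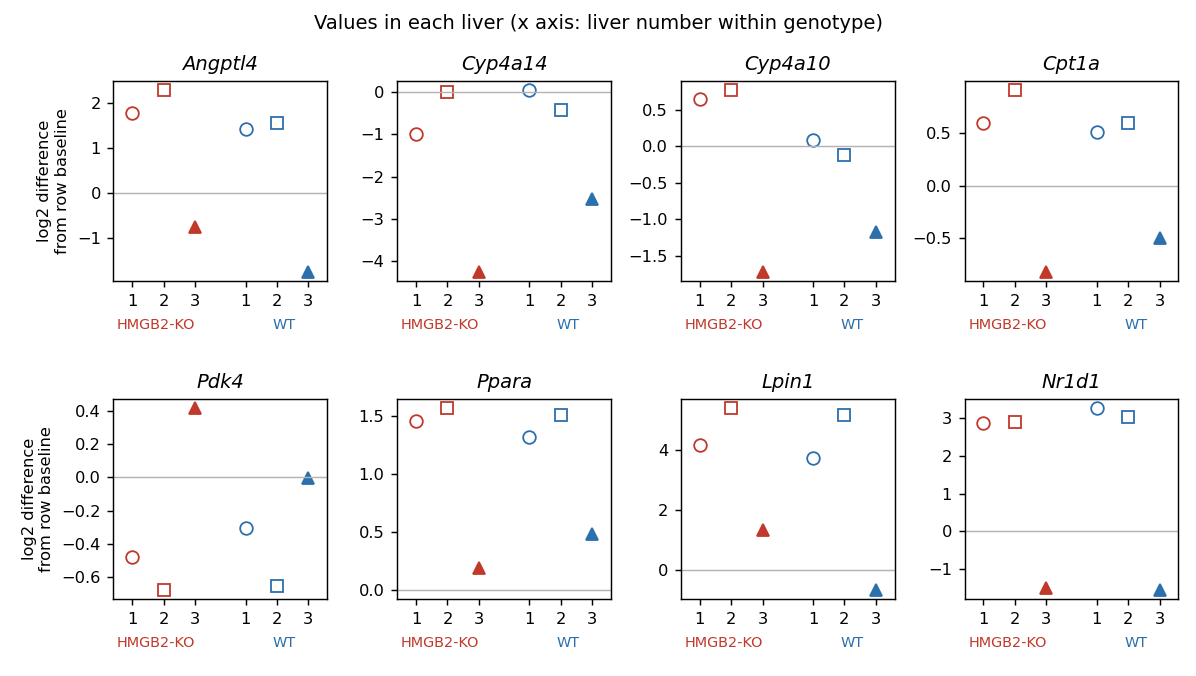
Log2 difference from the row baseline (y axes, each panel with its own range) in livers 1 to 3 of HMGB2-KO (red, left) and WT (blue, right) for 5 members and for Ppara, Lpin1 and Nr1d1. Filled triangles mark the livers numbered 3, which lie below the others of their genotype in 7 panels, such as Angptl4 at -0.75 and -1.76, and above them for Pdk4.

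Markers of liver cell types were set beside these values. None of the marker lists held a gene past the adjusted test in either comparison. The hepatocyte markers' median difference was 0.06 for HMGB2-KO against WT and 0.08 for the livers numbered 3, where 8 of 9 were higher. With the values as deposited these medians were -0.06 and -0.01, and the part of hepatocyte content in the members' values was not tested. All 11 Kupffer cell and macrophage markers measured were higher in HMGB2-KO (median 0.20) and all 11 were higher in the livers numbered 3 (median 0.12), or 9 and 8 of 11 with the values as deposited. After centring, their list medians were 0.41 to 0.60 in HMGB2-KO livers and 0.15 to 0.40 in WT livers. The part of these cells in the members' values was not tested. In the livers numbered 3 the other lists had medians of 0.00 for cholangiocyte, -0.12 for endothelial (0.03 with quantile normalization), 0.05 for stellate cell, -0.02 for adipocyte, -0.05 for striated muscle and -0.11 for lymphocyte markers. For HMGB2-KO against WT the same lists gave -0.22, 0.09, 0.04, -0.07, -0.16 and 0.08 in that order.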

How the data were processed

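Total RNA of 6 livers was extracted with Trizol and labelled with biotin for Clariom S arrays, per the labels' protocols. The deposited table holds log2 values by the authors, 1 column per liver, with 0 columns unused. How probes were summarized, scaled and set to a row baseline is not stated there, nor is the log base, and log2 was taken from the range of the values. Of 22206 rows, 19572 carried 1 gene symbol, 0 several and 2634 none. In 55 genes that had more than 1 row, the one highest on average was kept, leaving 19505 genes. Each array was centred on its median.

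Both comparisons used limma 3.58.1 in R 4.3.3 (lmFit, eBayes, two-sided) with Benjamini-Hochberg adjustment over 19505 genes at 0.05. A looser count took 1.5-fold and an unadjusted p under 0.05. The code was tested on simulated data. Members and lists were chosen with earlier results of these data known, and lists carry no test of their own. All members are named. Values per liver are given for the 8 members with the largest absolute difference in each comparison and for those at an unadjusted p under 0.05, and each pathway list names the 3 genes with the smallest p. A few further members are given per liver because their groups did not overlap, and Cyp4a12b is given beside Cyp4a12a. Alternatives were the scaling, array weights, the mean of rows, the variance prior, the genotype, animal and replicate block terms, and leaving out each liver. Same-numbered livers deviated together with correlations of 0.04, 0.13 and 0.29, and differently numbered livers with correlations of -0.21 to 0.10. Deviations were taken from each genotype's own mean. Those of its 3 livers therefore cancel out, and the correlations are not independent of each other. Each WT liver correlated best with the HMGB2-KO liver of its own number, though weakly for numbers 1 and 2. The labels name no pairs, so the main fit used none and the replicate block was run as an alternative. Motifs were searched with Python 3.11.15 in RefSeq promoter windows of GRCm38.p6. Symbols of all 33 members matched the RefSeq gene table.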

Additional observations from a re-analysis of the deposited data

How the results depend on the processing

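Of the 33 members' differences, 21 kept their sign under every alternative run for the livers numbered 3 against 1 and 2 and 16 did for HMGB2-KO against WT. In the first comparison leaving out 1 liver turned 11 and another scaling 5, none above 0.39 in size. In the second leaving out 1 liver turned 16 and another scaling 10, among them Cpt1a (-0.32 to 0.55 with 1 liver left out) and, of the 8 largest differences, 4: Acot3 ranged from -0.59 to 0.29 (positive without WT 1), Cyp4a10 from -0.14 to 1.11 (negative without WT 3, HMGB2-KO 1 or HMGB2-KO 2), Angptl4 from -0.39 to 1.63 (negative without WT 3) and Cyp4a14 from -1.65 to 0.47 (positive without HMGB2-KO 3). Fits for HMGB2-KO against WT with 1 liver left out held no term for liver number, which is then uneven between the genotypes. A difference between liver numbers thus enters their genotype difference. Angptl4 was higher in HMGB2-KO at each number, by 0.36, 0.72 and 1.01 at livers 1 to 3. The members' median for HMGB2-KO against WT was -0.0175 with the values as deposited and 0.01 to 0.23 with 1 liver left out, and the cause was not tested beyond the values above.

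No setting called a gene for HMGB2-KO against WT, the replicate block included (0 genes, 858 at an unadjusted p under 0.05). The deviations of HMGB2-KO liver 1 correlated best with those of WT liver 2, not WT liver 1, while each WT liver correlated best with the HMGB2-KO liver of its own number. The looser count of 148 genes was 209 with the replicate block, 290 as deposited, 63 without moderation, 378 within animals 38 to 41, and 158 to 331 with 1 liver left out. For the livers numbered 3, the 8 called genes became 22 with quantile normalization, 22 with array weights, 26 with a robust prior, 16 without the genotype term, 0 without moderation (1544 at an unadjusted p under 0.05), 1 within HMGB2-KO alone, 0 within WT alone (1025 at an unadjusted p under 0.05), and 1 to 12 with 1 liver left out. The count was 1 without HMGB2-KO 3 or WT 3 and 3 without HMGB2-KO 1. Called members numbered 2 with quantile normalization (Cyp4a14 and Angptl4) and with a robust prior (Cpt1a and Angptl4), 0 without moderation and within either genotype alone, and 0 to 1 with 1 liver left out, the 0 being without HMGB2-KO 3 or WT 3. The looser count of 591 (61.9% lower, or 78.7% as deposited) was 322 without moderation, 956 within HMGB2-KO alone, 996 within WT alone, and 523 to 959 with 1 liver left out. These fits have fewer livers, and the causes of the other moves were not tested. Signal over background is not in the deposited values, so low genes could not be set apart.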
